A study of Mus musculus with 3 samples.

Results

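The genes described here encode integrins, selectins, the intercellular adhesion molecules (ICAMs) and the vascular cell adhesion molecule VCAM1, which cells of blood and vessel wall use to hold on to each other and to matrix. They were taken by gene name from a fixed list of 32 genes (18 integrin alpha chains, 8 integrin beta chains, 2 selectins, 3 ICAM genes and Vcam1) out of the 19583 genes tested in the series. All 32 had a probe on the array, 44 probes in all. RNA came from mouse yolk sac cells sorted for VE-cadherin and CD45, that is, cells carrying both an endothelial and a pan-leukocyte surface protein, with no culture after the sort. The Control group was 1 sample labelled E10.5 (an embryonic stage in days), and the Tie-2-Etv2 group was 2 samples, replicate 1 and replicate 2. In these 2 a transgene (Tg) for the ETS transcription factor Etv2 was turned on by a Tie-2 Cre transgene. The stage of the Tie-2-Etv2 samples is not given in the sources used here. If it was not E10.5, stage and genotype cannot be told apart in any difference below. The strain of all 3 samples was mixed (B6/CBA and others), and beyond the word Control the labels give no alleles for the control sample. The Tie-2 promoter is active in endothelial cells and in many blood cells that arise from them. The labels do not say whether replicates 1 and 2 came from separate litters or pools, so their spread may be technical.

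Integrins are heterodimers of 1 alpha and 1 beta chain, and the pair decides the ligand. Beta 2 integrins of leukocytes bind ICAMs, alpha 4 paired with beta 1 binds VCAM1, alpha 4 paired with beta 7 binds the mucosal addressin MAdCAM-1, alpha IIb paired with beta 3 binds fibrinogen on platelets, and alpha v integrins bind vitronectin and other proteins with an RGD sequence. Selectins are lectins that let leukocytes tether to and roll on endothelium. In the yolk sac and embryo, integrin alpha IIb (CD41) is known as an early surface mark of blood progenitors that emerge from endothelium, before it becomes restricted to megakaryocytes and platelets.

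Each sample was hybridised to its own 1-colour array on 1 slide, read in 1 scan, and the scanner software called 24218 to 27014 probes per array well above background, the fewest on Tie-2-Etv2 replicate 1. The 75th percentile of probes detected on all arrays was 1199 intensity units on replicate 1, against 2073 on the control and 2092 on replicate 2. Levels below are log2 signal minus that percentile, so that 0 is the percentile itself, and levels of different probes are not comparable. As a check of the labels, Etv2 was at -4.84 on the control array and at -0.41 and -1.62 on the Tie-2-Etv2 arrays, 14.1-fold higher on average. Of the sort markers, Cdh5 (VE-cadherin) was detected on all arrays and 11.6-fold higher in Tie-2-Etv2, and Ptprc (CD45) differed by -0.46 ± 0.32 (log2 difference ± SE, 2 arrays against 1). The number of arrays limits all values: the test has 1 residual degree of freedom, from the Tie-2-Etv2 pair, and assumes that a control would vary as much.

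Testing a member needed a probe that was well above background in the control or in both replicates of the other group, and this held for 24 of the 32 members, 21 of them through a probe detected on all 3 arrays. Counts over the tested members therefore leave out 8 genes. Of those, Itga7, Itga11, Itgad, Itgae, Itgb6, Itgb8 and Sele were not well above background on any array, and Itga1 was so on replicate 1 alone. Among them are genes of laminin and collagen receptors of muscle and mesenchyme (alpha 7, alpha 11, alpha 1) and of leukocyte alpha chains (alpha D, alpha E). The others encode beta chains that join alpha v (beta 6, beta 8) and the inducible endothelial E-selectin.

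In limma's test over all probes, 0 of the 24 members and 0% of all 19583 genes had an adjusted p under 0.05. At an unadjusted p under 0.05 there were 5 members, Itga2, Itga2b and Itgam higher and Itgav and Itgb5 lower, and 10.8% of all genes; for Itgam this holds for its brightest probe, and its other probes gave -0.38 and 0.11. A shift of 2-fold or more with the same sign in both replicates was seen for 5 members: Itga2, Itga2b and Itgb7 were higher (3 of 24, against 3.92% of all tested genes) and Itgav and Itgb5 lower (2 of 24, against 6.64%). The members' shares were not tested against these. Itga2 was tested only through the Tie-2-Etv2 arrays, and its control value is background, so both its unadjusted p and its 2-fold shift rest on that value. With probes detected on all 3 arrays, 2 of 21 members were higher (Itga2b and Itgb7) and 2 lower (Itgav and Itgb5). Of all 17228 genes with such a probe, 502 were higher and 593 lower. For Itgav the unadjusted p and the 2-fold shift hold for its brighter probe. Its other probe gave -1.34 on replicate 1 and -0.42 on replicate 2. The control lay below both Tie-2-Etv2 arrays in 10 members (42.5% of all genes) and above both in 10 (30.9%), and between them in the other 4, Itga10, Selp, Icam4 and Vcam1. The median log2 difference over the tested members was 0.16, and 0.07 over all tested genes. Replicate 1 lay further from the control than replicate 2 in 17 of 24 members and in 13155 of all 19583 genes.

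**Figure D1:**
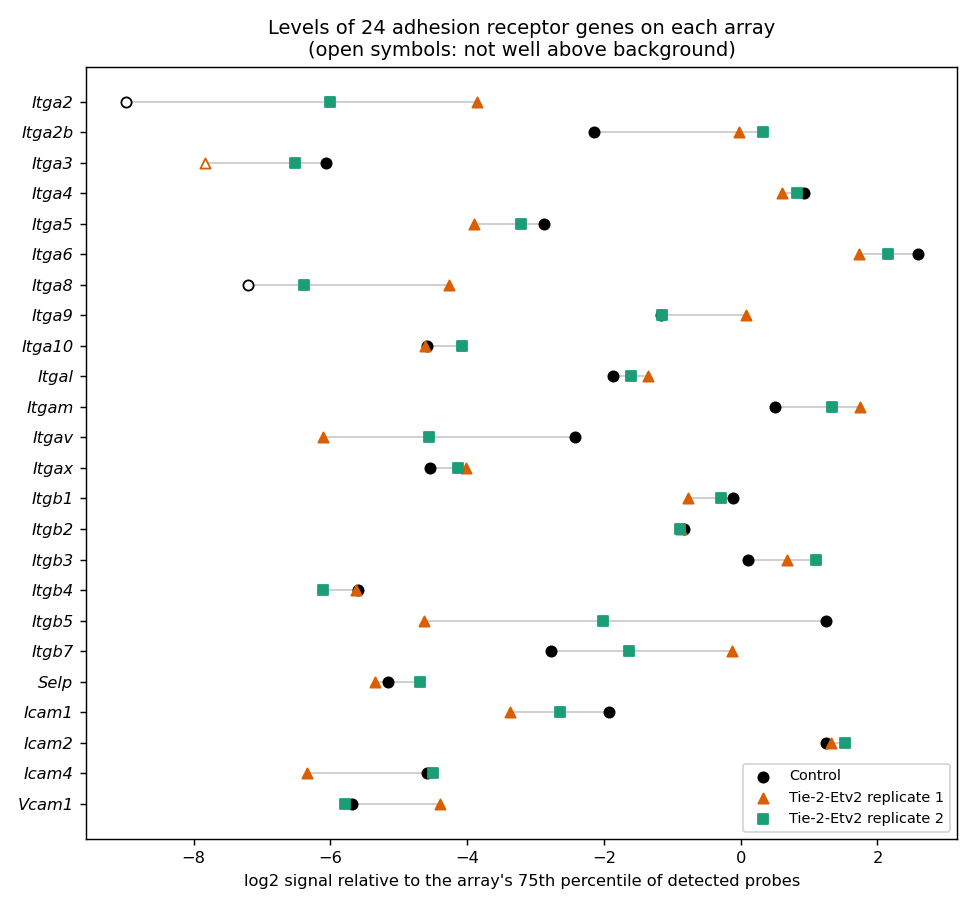
Level of each of the 24 tested genes on the 3 arrays, as log2 signal relative to the array's 75th percentile of detected probes (x axis); the grey line joins the lowest and highest array, and open symbols are not well above background. Itgb5 runs from 1.25 on the control to -4.63 on replicate 1, and Itgb2 lies at one place on all arrays (-0.83, -0.87 and -0.89); positions of different genes are not to be compared.

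The 250 bases before the RefSeq transcription start (GRCm38.p6, gene strand) are shown for 4 of these 5 genes, since the transgene encodes an ETS factor and ETS proteins bind DNA around a GGAA core. Capitals mark GGAAG or its reverse complement CTTCC. The 4 are at chr11:102469884-102470133 (minus strand) for Itga2b, chr15:102231936-102232185 (minus strand) for Itgb7, chr16:33829415-33829664 (plus strand) for Itgb5 and chr2:83724147-83724396 (plus strand) for Itgav.
Itga2b: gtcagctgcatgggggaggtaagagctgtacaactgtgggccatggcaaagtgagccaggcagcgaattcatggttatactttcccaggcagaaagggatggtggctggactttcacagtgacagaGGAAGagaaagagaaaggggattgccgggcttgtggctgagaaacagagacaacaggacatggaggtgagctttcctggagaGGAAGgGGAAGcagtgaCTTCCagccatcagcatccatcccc
Itgb7: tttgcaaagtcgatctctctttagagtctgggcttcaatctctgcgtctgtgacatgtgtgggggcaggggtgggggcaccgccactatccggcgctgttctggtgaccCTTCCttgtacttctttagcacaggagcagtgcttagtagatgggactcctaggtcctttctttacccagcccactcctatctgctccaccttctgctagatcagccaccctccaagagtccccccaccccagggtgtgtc
Itgb5: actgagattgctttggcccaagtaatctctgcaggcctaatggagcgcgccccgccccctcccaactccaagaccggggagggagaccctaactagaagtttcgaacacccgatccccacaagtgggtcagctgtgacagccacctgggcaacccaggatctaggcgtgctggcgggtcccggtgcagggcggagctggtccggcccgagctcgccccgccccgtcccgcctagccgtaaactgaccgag
Itgav: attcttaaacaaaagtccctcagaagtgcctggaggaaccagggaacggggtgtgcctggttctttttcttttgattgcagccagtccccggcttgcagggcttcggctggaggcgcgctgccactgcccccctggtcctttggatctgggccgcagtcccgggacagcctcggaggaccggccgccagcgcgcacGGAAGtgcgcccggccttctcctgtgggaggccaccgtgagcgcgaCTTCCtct
The window holds GGAAG on either strand 4 times in Itga2b, 1 time in Itgb7, 2 times in Itgav and 0 times in Itgb5 and in Itga2, which is not printed. RefSeq promoters were found for 22 members, 24 windows in all, of which 16 (66.7%) hold GGAAG, against 64.1% of all 32851 windows. The longer CCGGAA is in 2 of the 24 member windows, those of Icam1 and Itga3 (8.33%, against 12.0% of all), and the GATA factor motif GATAAG in 1, that of Icam4 (4.17%, against 6.55%). Of longer forms of the GGAAG motif, the one with an A before it is in 11 of the 24 member windows (45.8%, against 29.5% of all). These are windows of Itga2b, Itgb7 and Itgav, and of Itga3, Itgam, Itgb1 and Selp, which were not 2-fold apart on both arrays. The others belong to the untested Itga1, Itga11, Itgb6 and Sele. The form with a T after GGAAG is in 6 (25.0%, against 19.7%). These are windows of Itga2b and Itgav, of Itgax, which was not 2-fold apart, and of the untested Itga1, Itga11 and Itgb6. These shares were not tested. A match is a description of letters and does not show binding, and these windows leave out enhancers.

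The platelet integrin alpha IIb was the member with the smallest adjusted p. Itga2b, which encodes alpha IIb (CD41), was at -2.14 on the control array, -0.02 on replicate 1 and 0.33 on replicate 2. Both Tie-2-Etv2 arrays lay above the control and close to each other, 4.34-fold and 5.53-fold higher (2.29 ± 0.35, SE; adjusted p = 0.235 in limma's test). A change in the number of cells of a type and a change in RNA per cell cannot be told apart in such bulk samples, here or below. The Itga2b probe lies at chromosome 11, 102319453 to 102319661 (mm9, minus strand). Its 60 bases map to 209 bases of genome, so it crosses an exon junction and reads spliced RNA, and it starts at base 2349 of its transcript, NM_010575.
Itga2b probe: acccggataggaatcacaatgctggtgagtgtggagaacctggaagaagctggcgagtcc

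Itgb3, which encodes the beta 3 chain (CD61) that pairs with alpha IIb and with alpha v, was at 0.11 on the control, 0.68 on replicate 1 and 1.10 on replicate 2, a difference of 0.78 ± 0.37 (adjusted p = 0.605). Its dimmer probe, at transcript base 2618, gave 1.19 ± 0.32, with 1.17 on replicate 1 and 1.20 on replicate 2. Both probes thus put the control below both Tie-2-Etv2 arrays. Of the 12 megakaryocyte and platelet markers tested, 4 were 2-fold higher on both arrays (among them Clec1b, Mmrn1 and Gp9). With dim values as measured, 4 were 2-fold lower (Pf4, Vwf, Ppbp and Gp6). Of these, Gp6 was detected on the control alone, at least 1.91-fold lower, and Ppbp was not above background on replicate 1. The markers' summed signal, in units of the 75th percentile, was 8.32 on the control and 13.8 and 8.73 on the Tie-2-Etv2 arrays. Such a sum, here and below, is weighted towards its brightest probes, such as Pf4 on the control (2.62). The part of these markers in the values of Itga2b and Itgb3 was not tested.

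Itga2, which encodes the collagen receptor chain alpha 2 found on platelets and other cells, was not well above background on the control array and was detected on both Tie-2-Etv2 arrays, at -3.86 and -6.00. As the control gives only a limit, the bright group's mean was set against the lowest detected signal of the control array, which gave at least 4.93-fold higher (10.3-fold by replicate 1, 2.35-fold by replicate 2). The fit gave 4.06 ± 0.99 (adjusted p = 0.323), but it uses a control value that is background, so these do not measure the size. With normexp background correction, a model-based subtraction with an offset that compresses dim values, it was 1.30 and no longer 2-fold on both arrays. The probe lies at chromosome 13, 115626714 to 115626773 (mm9). Itga8, which encodes a fibronectin and nephronectin receptor chain, had the same pattern of detection, at -7.20 on the control, -4.27 on replicate 1 and -6.39 on replicate 2. It was at least 3.65-fold higher, but only 1.75-fold on replicate 2 (1.87 ± 0.98, adjusted p = 0.653). Both genes were brighter on replicate 1.

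Itgb7, which encodes the beta 7 chain of gut-homing and mast cell progenitor integrins, was at -2.77 on the control array, -0.13 on replicate 1 and -1.63 on replicate 2. It was 6.22-fold and 2.21-fold higher (1.89 ± 0.73, adjusted p = 0.506), and its replicates lay 2.82-fold apart. The probe lies at chromosome 15, 102046450 to 102046509 (mm9). Of its alpha partners, Itga4 (alpha 4) was at 0.93, 0.61 and 0.83, and Itgae (alpha E) was not detected. Itga4 differed by -0.21 ± 0.33 with the probe at transcript base 9754 and by -0.10 ± 0.32 with the probe at base 2292. Of the 10 granulocyte and mast cell markers tested, 5 were 2-fold higher on both arrays (Mpo, S100a8, S100a9, Cpa3 and Ltf) and 0 lower. Ltf, Camp and Ctsg were tested only through the Tie-2-Etv2 arrays, as they were not above background on the control, so they could hardly count as lower. For Ltf the bound was at least 2.74-fold higher by replicate 2. The markers' summed signal was 28.0 on the control and 62.9 and 64.2 on the Tie-2-Etv2 arrays. Mcpt8, Ms4a2, Ngp and Prg2 were not above background on any array. The part of these markers in the Itgb7 value was not tested.

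The alpha v beta 5 pair, a vitronectin receptor that also takes part in the uptake of dying cells, was lower in both chains. Itgb5, which encodes beta 5, had a signal of 4940 intensity units on the control array, 48.5 on replicate 1 and 515 on replicate 2. As scaled levels these are 1.25, -4.63 and -2.02, which is 58.9-fold lower on replicate 1 and 9.68-fold on replicate 2 (-4.58 ± 1.18, adjusted p = 0.342). This was the widest gap of any tested member, and the replicates also differed from each other by 6.08-fold. The probe lies at chromosome 16, 33949123 to 33949182 (mm9). Itgav, which encodes alpha v, was at -2.42 on the control, -6.11 on replicate 1 and -4.56 on replicate 2 with its brighter probe, at transcript base 6113 (-2.92 ± 0.75, adjusted p = 0.339). The probe lies at chromosome 2, 83646133 to 83646192, and the other, at base 3885, put the difference at -0.88 ± 0.51, with -1.34 on replicate 1 and -0.42 on replicate 2. The probes of Itgav thus gave the same direction but differed by 2.04 on the log2 scale. Of the other beta chains that join alpha v, Itgb3 had both replicates above the control, Itgb1 is given below, and Itgb6 and Itgb8 were not detected.

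Macrophage markers moved in the same direction as Itgb5 and Itgav. All 14 tested of the 15 listed (among them Csf1r, Adgre1, Mrc1 and C1qa) were at least 2-fold lower on both Tie-2-Etv2 arrays. Of these, Timd4 and Marco were detected on the control alone, and Mertk was not above background on replicate 1. The macrophage markers' summed signal was 79.4 on the control, 5.05 on replicate 1 and 17.6 on replicate 2. Visceral endoderm markers were lower too, in 9 of 10 tested genes, with sums of 34.1, 1.81 and 14.5. Of 10 tested mesenchyme and smooth muscle markers, 6 were 2-fold lower on both arrays and 0 higher, with Lum and Dcn detected on the control alone. Twist1, not above background on the control, lay above it on both arrays, and Pdgfrb and Postn had the control between them. These markers summed to 1.54 on the control and to 0.244 and 0.174 on the Tie-2-Etv2 arrays. The part of these cell types in the Itgb5 and Itgav values was not tested.

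**Figure D2:**
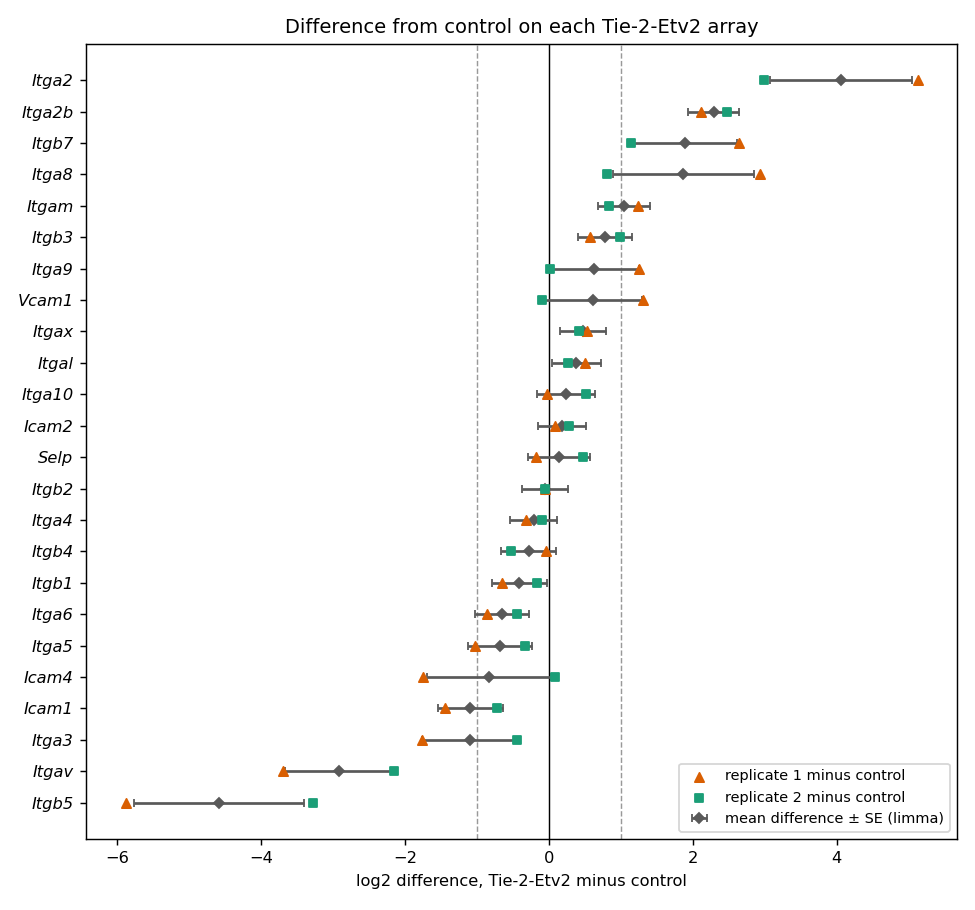
Log2 difference from the control on each Tie-2-Etv2 array (triangle, replicate 1; square, replicate 2) and their mean ± SE from limma (diamond) for the 24 tested genes, ordered by the mean. Dashed lines mark 2-fold; Itga2, Itga2b and Itgb7 lie beyond the upper line and Itgav and Itgb5 beyond the lower line with both replicates, and the control value of Itga2 was not above background.

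Of the 4 detected genes of leukocyte beta 2 integrins, 0 were 2-fold apart on both arrays in either direction. Of all tested genes 3.92% were higher and 6.64% lower, so with 4 genes a count of 0 is near these shares. Itgb2, which encodes the shared beta 2 chain (CD18), was at -0.83 on the control, -0.87 on replicate 1 and -0.89 on replicate 2, a difference of -0.05 ± 0.32. Itgal, the alpha L chain of LFA-1, was at -1.86, -1.36 and -1.60 (0.38 ± 0.34), and its 3 probes gave 0.20 to 0.43. Itgax, the alpha X chain (CD11c) of dendritic cells and some macrophages, was at -4.55, -4.02 and -4.13 (0.48 ± 0.32). Both genes had the control below both Tie-2-Etv2 arrays by less than 2-fold, and neither difference passed the test.

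Itgam, the alpha M chain (CD11b) of myeloid cells, depended on the probe. The brightest probe, at transcript base 4431, was at 0.50 on the control, 1.74 on replicate 1 and 1.34 on replicate 2 (1.04 ± 0.36, adjusted p = 0.470). The probe at base 3410 gave -0.38 ± 0.43 and the probe at base 270 gave 0.11 ± 0.34. No single direction is given for Itgam, whose mean over the 3 probes was 0.26. The probes at bases 3410 and 4431 are listed for transcript record NM_001082960 and the one at base 270 for NM_008401.

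**Figure D3:**
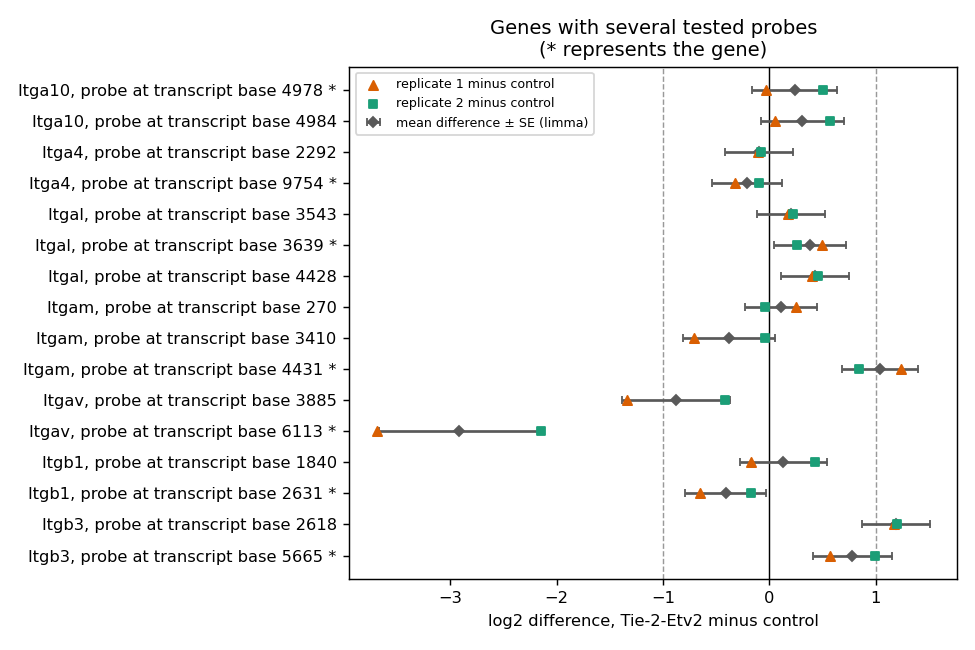
Log2 difference from the control for each tested probe of the 7 genes with several, by replicate (triangle and square) and as mean ± SE from limma (diamond); the y axis gives the base of the transcript at which the probe starts. The Itgam probes run from -0.38 to 1.04 and the Itgav probes from -2.92 to -0.88, while the probes of Itga4, Itga10, Itgal and Itgb3 lie within 0.41 of each other.

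Of the ligands of beta 2 integrins, Icam1, an inflammation-induced endothelial and leukocyte gene, was at -1.92 on the control, -3.38 on replicate 1 and -2.64 on replicate 2. Both Tie-2-Etv2 arrays were lower, 2.74-fold and 1.65-fold (-1.09 ± 0.45, adjusted p = 0.542). Icam2, which is expressed constitutively on endothelium and platelets, was at 1.24, 1.32 and 1.52 and differed by 0.18 ± 0.33. Icam4, a red cell adhesion gene (Landsteiner-Wiener antigen), was at -4.59 on the control, -6.34 on replicate 1 and -4.50 on replicate 2, so it was lower on replicate 1 alone (-0.83 ± 0.86). Beside Icam4, 5 of 9 tested erythroid markers were 2-fold lower on both arrays and 0 higher, with sums of 40.9 on the control and 8.07 and 11.7 on the Tie-2-Etv2 arrays. Beside Icam2, 9 of 14 endothelial markers were 2-fold higher on both arrays and 0 lower. The 9 include Sox18, which was not above background on the control and was at least 55.1-fold higher by replicate 2. The endothelial sums were 11 on the control, 53.4 on replicate 1 and 26.2 on replicate 2. The brightest erythroid probe was that of Hbb-y, at 4.65 on the control, 2.3 on replicate 1 and 2.78 on replicate 2. The brightest endothelial probe was that of Egfl7, at 3.06, 5.39 and 4.42, and these weigh most in the sums. The part of the markers in the Icam4 and Icam2 values was not tested.

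Apart from Itga2 and Itgav, given above, no tested chain that forms matrix receptors with beta 1 was 2-fold apart on both arrays. Itgb1, the beta 1 chain that most alpha chains join, was at -0.12 on the control, -0.77 on replicate 1 and -0.29 on replicate 2 (-0.41 ± 0.38), and its second probe, at transcript base 1840, gave 0.13 ± 0.41. The fibronectin receptor gene Itga5 was at -2.87, -3.90 and -3.21 (-0.68 ± 0.44). The laminin receptor gene Itga6, also a stem cell surface marker, was at 2.59, 1.73 and 2.15 (-0.65 ± 0.37). For both genes the Tie-2-Etv2 arrays lay below the control and replicate 1 was lower. Itga3, another laminin receptor gene, was at -6.07 on the control and -6.52 on replicate 2 and not well above background on replicate 1, where it was at least 1.69-fold lower; its mean difference was -1.10 ± 0.66, and 0.07 with normexp correction.

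Itga9, which encodes a chain that binds tenascin and VCAM1 and is known from lymphatic endothelium, was at -1.17 on the control, 0.08 on replicate 1 and -1.15 on replicate 2. It was 2.37-fold higher in replicate 1, while replicate 2 lay at the control's level within 0.02 (0.63 ± 0.63). Itga10, a cartilage collagen receptor gene, was at -4.58, -4.62 and -4.08 (0.24 ± 0.40), and its second probe, which overlaps the first, gave 0.31. Itgb4, the partner of alpha 6 in epithelia, was at -5.59, -5.62 and -6.11 (-0.28 ± 0.38, and 0.11 with normexp correction).

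Of the endothelial receptors for rolling and firm adhesion, Selp (P-selectin, stored in platelets and endothelial cells) was at -5.15 on the control, -5.34 on replicate 1 and -4.69 on replicate 2, so the control lay between the Tie-2-Etv2 arrays (0.14 ± 0.43). Its probe was printed in 10 spots per array, whose SD on the log2 scale was 0.107 on the control, 0.173 on replicate 1 and 0.111 on replicate 2. Vcam1, the ligand of alpha 4 beta 1, was at -5.69 on the control, -4.39 on replicate 1 and -5.78 on replicate 2. It was 2.48-fold higher in replicate 1 and 1.06-fold lower in replicate 2 (0.61 ± 0.69).

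Genes around these receptors were taken from 4 lists chosen for their roles. Over all tested genes 3.92% were 2-fold higher on both arrays and 6.64% lower, and the lists' shares were not tested against these. Of 26 tested genes of integrin activation and the adhesion complex, 0 were 2-fold higher on both arrays. With dim values as measured, 3 were lower, and the median was -0.24. Fyb, a T cell and platelet adaptor in integrin activation, differed by -1.17 ± 0.33, and Tln2 (talin 2) by -1.58 on replicate 2 while not above background on replicate 1. The Rap1a probe was detected on the control alone, at least 8.12-fold lower. The core activators Tln1 (talin 1) and Fermt3 (kindlin 3) were at 0.12 ± 0.32 and 0.21 ± 0.36.

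Among 21 tested integrin ligands, 1 was 2-fold higher on both arrays (against 3.92% of all tested genes) and 9 lower (against 6.64%). Their median was -1.10. The higher gene was Lama4, a laminin chain of vessel basement membranes (1.62 ± 0.43). The 9 are counted with dim values as measured. Spp1 (osteopontin, a ligand of alpha v integrins) is among them but was detected on the control alone, at a level below the lowest that replicate 1 detected (a bound of 0.901), so no fold is given. Lower genes also included Lama1 and Cdh1 (E-cadherin, which integrin alpha E beta 7 binds), which had only a limit on replicate 1, where they were not above background, and were at -1.42 and -1.25 relative to the control on replicate 2. Fgg, a fibrinogen chain and so part of the ligand of alpha IIb beta 3, was at -0.32 on the control, -4.75 on replicate 1 and -1.56 on replicate 2 (-2.83 ± 1.43). Visceral endoderm markers, given above, were also lowest on replicate 1; their part in these values was not tested. Of 15 tested selectin ligands and glycosylating enzymes, Fut7, the fucosyltransferase that completes selectin ligands on leukocytes, was 8.29-fold higher (-6.78 on the control, -3.39 and -4.06 on the Tie-2-Etv2 arrays) and the sialyltransferase gene St3gal6 2.54-fold lower; Selplg (PSGL-1), the main P-selectin ligand, differed by -0.16 ± 0.34. Of 14 other adhesion genes, Esam and Pecam1, both endothelial junction genes and both also in the endothelial marker list, were 7.76-fold and 2.64-fold higher, and Alcam was detected on the control alone, at least 2.78-fold lower. In each of the 4 lists 0 genes had an adjusted p under 0.05. This holds for any list, as the smallest adjusted p over all tested probes was 0.199 in limma's test.

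**Figure D4:**
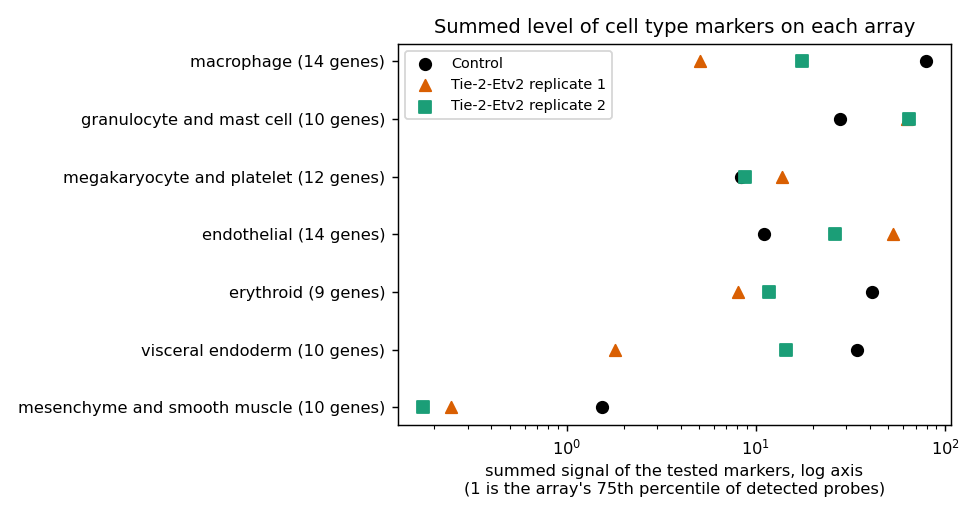
Summed signal of the tested markers of each cell type on the 3 arrays (x axis, log scale; 1 is the array's 75th percentile of detected probes). The macrophage sum was 79.4 on the control and 5.05 and 17.6 on the Tie-2-Etv2 arrays. The endothelial sum was 11 on the control and 53.4 and 26.2 on the Tie-2-Etv2 arrays. Each sum is weighted towards its brightest probes, as the endothelial sum is towards Egfl7.

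Members passed limma's test under 2 of the alternative settings, normexp background correction and no filter on dim probes. There limma's prior degrees of freedom, which weight the variance shared by all probes, were infinite and 20.1, against 2.93 in the main fit. With an infinite value all probes get the same variance, so the gap between a gene's replicates does not enter its p. An exact permutation of these 3 arrays allows no p below 0.333. With probes detected on all 3 arrays, or with dim values set to the lowest detected level, 0 passed. With normexp background correction 4 of the 24 tested members passed, Itga2b (2.14, adjusted p = 0.000233) and Itgb7 (1.73, adjusted p = 0.00804) higher and Itgav (-1.70, adjusted p = 0.0103) and Itgb5 (-3.92, adjusted p = 9.94e-15) lower, where 3.14% of all genes passed. With no filter on dim probes 2 of 32 members passed, Itgb5 (adjusted p = 0.00536) and Itga2 (adjusted p = 0.00811), the latter against a control value that is background, where 1.22% of all genes passed. Over all settings the adjusted p ranged from 0.000233 to 0.342 for Itga2b, from 0.00804 to 0.611 for Itgb7, from 0.0103 to 0.501 for Itgav, from 9.94e-15 to 0.504 for Itgb5 and from 0.00811 to 0.497 for Itga2. With both replicates kept, the difference ranged over the settings from 2.14 to 2.29 for Itga2b, from 1.73 to 1.89 for Itgb7, from -2.95 to -1.70 for Itgav and from -4.61 to -3.92 for Itgb5.

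**Figure D5:**
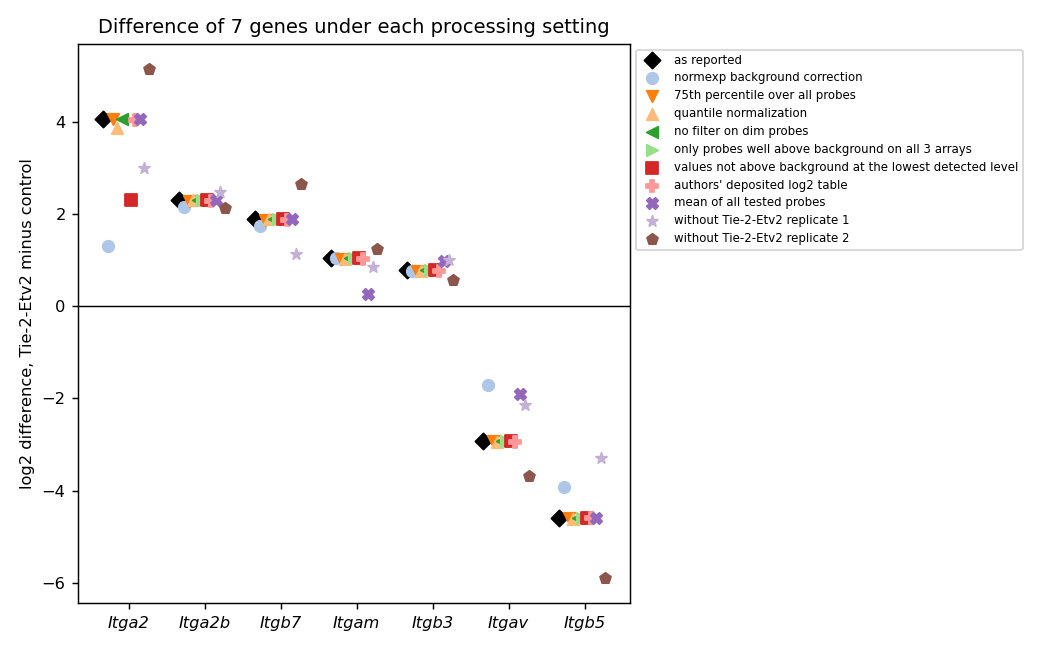
Log2 difference from the control (y axis) of 7 genes (x axis) under each processing setting; black diamonds are the values reported above. Itga2b stays between 2.12 and 2.47 with either replicate left out, Itgb5 runs from -5.88 without replicate 2 to -3.28 without replicate 1, and Itga2 falls to 1.30 with normexp background correction.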

How the data were processed

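Intensities were deposited as 1 scanner text file per array; per the file headers, Agilent Feature Extraction 10.7.3.1 (10.7 in the submitters' processing notes) subtracted background and replaced very dim values, with no scaling between arrays of design 028005. A log2 table that the authors deposited states neither scale nor centring. Set against the processed signals, its array-to-array differences matched within 0.01 in 100% of 55668 probes once a constant was removed (0.756 and -0.0161), and each row is centred on its median; column medians were 0, 0.136 and 0. It served as an alternative, with the same probe for each gene.

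Control spots and 168 to 174 outlier spots per array were left out, no spot was saturated, and spots of a probe were averaged on the log2 scale. Each array's 75th percentile, taken over 22764 probes that all arrays detected, was subtracted. Tested were 26217 probes; where a gene had several, the one whose averaged group means were highest stands for it. Probes were named through RefSeq (GRCm38.p6; 26575 by accession, 2602 by symbol, 492 by synonym, 25999 unmatched and kept as named); probe coordinates are mm9, per the file headers. The test was limma 3.58.1 (lmFit, eBayes; R 4.3.3), two-sided, Benjamini-Hochberg over probes, threshold 0.05; total degrees of freedom were 3.93. The fit was also run on simulated data. There the control varied as the Tie-2-Etv2 arrays did, so the run cannot check that assumption. With 1 control and 2 transgenic arrays, 0.333 is the smallest p an exact permutation allows. "2-fold apart" means a log2 difference of 1 or more on both Tie-2-Etv2 arrays, with no test and dim values as measured. A bound sets the bright group's mean against, per dim array, the higher of the probe's own value and the lowest detected signal.

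Members, pathway and marker lists and tests were chosen with earlier results of these data known; all tested members are named, and of each pathway list genes 2-fold apart on both arrays, largest first, others after their values were seen; some listed genes are not reported here by name. Motifs and promoters shown were chosen after the data were seen. Alternatives were normexp (offset 50), the percentile over all probes, quantile normalization, other filters and floors for dim probes, the mean of all probes of a gene, the authors' table, and each Tie-2-Etv2 replicate left out.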

Additional observations from a re-analysis of the deposited data

Results flagged for a closer look

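A probe each of Itga1 and Vcam1 is not used in the comparisons because it was detected on a single Tie-2-Etv2 array and not on the control. A signal there above that of the control follows largely from this selection. The intensities are not scaled between arrays, whose 75th percentile was 1199 on replicate 1 and 2073 on the control. The Itga1 probe at transcript base 3710 was at 28.9 intensity units on replicate 1, against 2.85 on the control and 2.50 on replicate 2; its other probe, at base 683, was not above background on any array. The second Vcam1 probe, at base 842, was at 20.3 on replicate 1, against 3.30 on the control and 5.46 on replicate 2; the tested Vcam1 probe was also highest on replicate 1.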

How the results depend on the processing

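No paired analysis was possible because there is only 1 control array, whose label carries no replicate number to share with the Tie-2-Etv2 pair. The number of genes passing limma's test was 0 except with normexp background correction (614) and no filter on dim probes (440), and of members 4 and 2; limma's prior degrees of freedom were then infinite and 20.1, against 2.93, and the cause was not tested. Genes 2-fold higher on both arrays numbered 768, but 312 with normexp, 1317 with no filter and 502 with probes detected on all 3 arrays; genes 2-fold lower numbered 1300, but 491 with normexp and 593 with probes detected on all 3 arrays. With 1 replicate left out, 896 to 1775 genes were 2-fold higher and 1634 to 2204 lower, and among members 3 to 7 were higher and 2 to 6 lower, the larger numbers with replicate 1 alone. Itga2b, Itgb7, Itgav and Itgb5 were 2-fold apart under all alternatives run. Those used the brighter Itgav probe or the mean of both probes. The dimmer Itgav probe by itself gave -1.34 on replicate 1 and -0.42 on replicate 2, so it was not 2-fold apart on both. Members that turned sign were Itga3 (0.07) and Itgb4 (0.11), both with normexp. Dim signal limits Itga2, Itga3 and Itga8, which were not above background on all arrays.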
